A study of Bos taurus with 6 samples.

Results

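The genes described here are calmegin (CLGN) and other chaperones of the endoplasmic reticulum (ER), measured in day-7 bovine blastocysts on the Affymetrix GeneChip Bovine Genome Array. All probe sets whose platform annotation gives the symbol CLGN, CALR, CANX, PDIA3, PDIA4, PDIA6, P4HB, HSPA5, HSP90B1 or HYOU1 were taken, whatever their level. This gave 9 of the 9155 genes with a symbol, and 20 of the 24016 probe sets tested. PDIA6 had 0 probe sets under that symbol and was not analysed here. CLGN was chosen by its difference between the groups on these 6 arrays, a very large fall, so its values are a description and carry no test. The other genes were named for their function.

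The study asked how the reproductive tract of a superovulated heifer affects the transcripts of the embryo. All embryos came from Simmental heifers that were synchronized, superovulated and artificially inseminated. The 3 superovulated arrays hold blastocysts that stayed in such heifers until day 7. The 3 synchronized arrays hold blastocysts flushed at the 2-cell stage on day 2, placed by endoscope into recipients that had been synchronized but not superovulated, and collected on day 7. Stimulation of the tract and the flushing and transfer therefore cannot be told apart. How many embryos went into an array was not stated in the labels. Whether arrays of 1 group stem from different animals was not stated either, and the p-values below cover only array-to-array spread, which may be technical.

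Proteins that enter the ER receive N-glycans and fold there with the help of chaperones. Calnexin (CANX), anchored in the membrane, and calreticulin (CALR), free in the lumen, are lectins that hold glycoproteins carrying a trimmed glycan. They present these clients to the disulphide isomerase PDIA3. Calmegin is a membrane-anchored relative of calnexin, best known from male germ cells, where it is needed for sperm surface proteins to mature. HSPA5, HSP90B1 and HYOU1 form another system, which binds unfolded chains without reading glycans.

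The values are log2 signals per probe set and array, and a difference is superovulated minus synchronized in log2 units. Group values are mean ± SD over 3 arrays, and single values are listed in the order of arrays 1, 2 and 3 within a group. Array medians lay between 2.75 and 2.8, and a probe set that did not exceed log2 4 is called near background. Between 1457 and 1894 probe sets per superovulated array and between 973 and 1850 per synchronized array exceeded log2 4, with the most on superovulated array 3 and synchronized array 2 and the fewest on synchronized array 1. Probe sets differ in how strongly they bind, so levels are not set against each other between genes. In RNA from whole embryos, fewer cells of a type and less RNA per cell cannot be told apart.

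CLGN was at background in blastocysts from superovulated heifers and bright in those from synchronized recipients, on both of its probe sets. On the brighter probe set it read 3.04, 2.56 and 3.27 in the superovulated group and 10.25, 9.13 and 10.07 in the synchronized group. On the dimmer one it read 3.16, 3.21 and 3.28, then 6.98, 5.72 and 6.99. Every synchronized array lay above every superovulated array, by at least 5.86 on the brighter and at least 2.44 on the dimmer probe set.

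The brighter CLGN probe set averaged 2.96 ± 0.36 in the superovulated and 9.82 ± 0.60 in the synchronized group, a difference of -6.86. This was the lowest difference of the 24016 probe sets, and the dimmer probe set, at -3.35, ranked number 9 from the lowest. The 2 probe sets thus gave the same direction and sizes that differed by several log2 units. Because the superovulated arrays were near background, where the authors' GCRMA method compresses values, the size of the difference is uncertain. Within the synchronized group, array 2 was the lowest on both probe sets. Array 2 was the lowest synchronized array in 24.4% of the 1406 probe sets whose mean exceeded log2 4, while in 53.8% of them array 2 was the highest and array 1 the lowest.

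**Figure D1:**
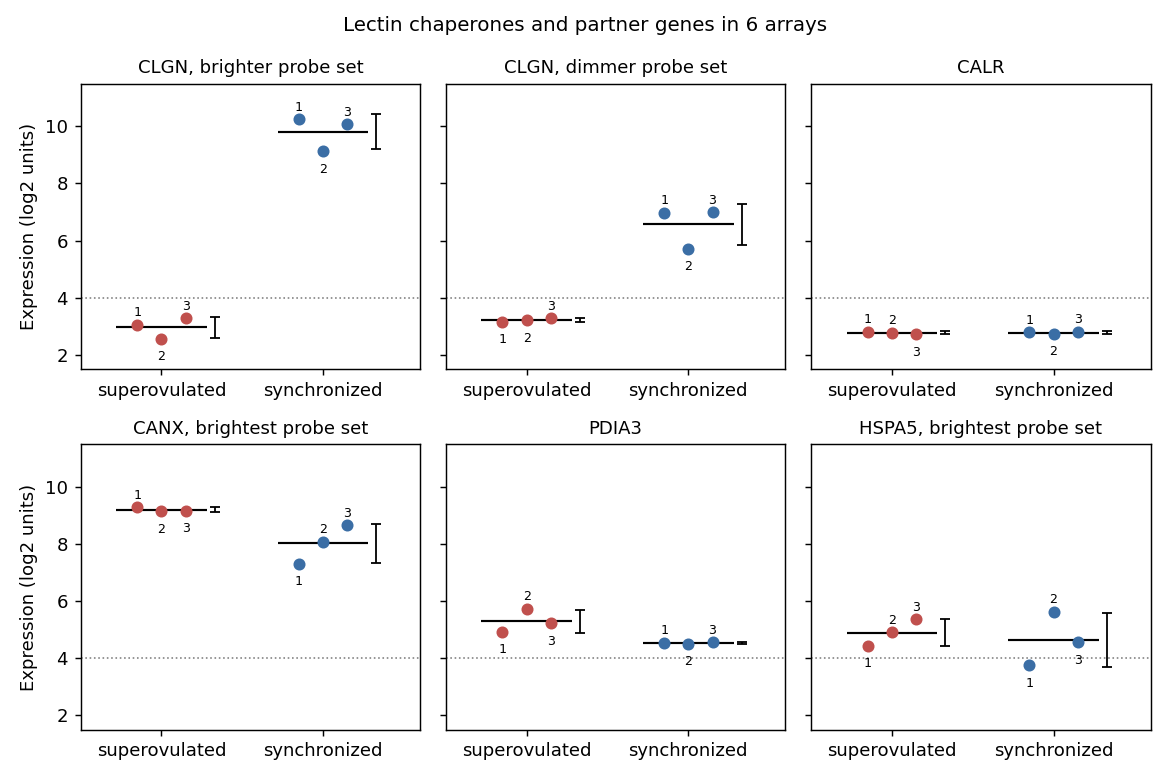
Expression (log2 units) of CLGN on both probe sets, of CALR, and of CANX, PDIA3 and HSPA5 on their brightest probe sets, in the 3 superovulated (red) and 3 synchronized (blue) arrays. Points are arrays numbered by replicate, horizontal lines are group means, bars at the right are ± 1 SD, and the dotted line is log2 4. CLGN lies between 2.56 and 3.28 on the superovulated arrays, CANX is bright on all 6 arrays, and CALR stays near background on all 6.

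CANX, a close relative of CLGN, was not lower in the superovulated group in the way CLGN was. CALR, the other close relative, was near background on all 6 arrays, so its probe set could not show such a difference. CANX read 9.30, 9.15 and 9.17 in the superovulated group and 7.32, 8.09 and 8.67 in the synchronized group on its brightest probe set. It was thus bright on all 6 arrays, and its superovulated arrays lay above all synchronized ones, opposite in direction to CLGN. The means were 9.21 ± 0.08 and 8.03 ± 0.68, and the difference of 1.18 (95% interval 0.27 to 2.09) did not pass limma's test over all probe sets (adjusted p = 0.522, unadjusted p = 0.0209).

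The spread of CANX lay almost wholly in the synchronized group, where array 1 was the lowest. Of the 1406 probe sets above log2 4, 34.1% had a difference at least as high as that of CANX, and their median difference was 0.59. The difference was 0.26 after a second quantile normalization and 0.56 once each array was centred on those probe sets. The other 2 CANX probe sets were near background on every array, with differences of -0.11 and -0.10. The single CALR probe set read between 2.71 and 2.81 on all 6 arrays, with a difference of -0.01 (95% interval -0.10 to 0.08), so at that signal no difference in CALR was detectable.

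Among the disulphide isomerases, PDIA3, the partner of calnexin and calreticulin, gave a usable signal. PDIA3 read 4.92, 5.74 and 5.23 in the superovulated group and 4.54, 4.50 and 4.56 in the synchronized group. The superovulated arrays were all higher, and here the spread was in that group. The difference of 0.76 (95% interval 0.21 to 1.32) did not pass limma's test (adjusted p = 0.452, unadjusted p = 0.0168). It was 0.14 after quantile normalization and 0.14 after centring on probe sets above log2 4.

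PDIA4, an isomerase with additional catalytic domains, and P4HB, the classical protein disulphide isomerase that is also a subunit of prolyl hydroxylase, were near background. For PDIA4, 1 of 3 probe sets separated the groups, at 2.63, 2.62 and 2.47 on the superovulated and 2.68, 2.87 and 3.12 on the synchronized arrays, with a difference of -0.32 that did not pass limma's test (adjusted p = 0.636). The other 2 differed by -0.02 and -0.01. P4HB read 2.30, 2.30 and 2.77, then 2.31, 3.12 and 2.38. It was highest on synchronized array 2 and superovulated array 3, and the groups overlapped.

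HSPA5, the Hsp70 chaperone of the ER lumen whose transcript is a standard readout of ER stress, varied more within the groups than between them. Its brightest probe set read 4.43, 4.91 and 5.37 in the superovulated group and 3.75, 5.63 and 4.56 in the synchronized group. The highest and the lowest values were both in the synchronized group. The difference was 0.26 (95% interval -1.15 to 1.66, limma adjusted p = 0.790), and it became -0.07 after quantile normalization, -0.36 after centring on probe sets above log2 4 and -0.19 without synchronized array 1.

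The arrays that were highest for HSPA5, synchronized array 2 and superovulated array 3, also had the most probe sets above log2 4, and synchronized array 1, the lowest, had the fewest. The part of this in the HSPA5 values was not tested. The other 2 HSPA5 probe sets differed by -0.18 and -0.04. In the first of them synchronized array 3 read 3.12 and the other 5 arrays between 2.58 and 2.60.

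HSP90B1, the Hsp90 chaperone of the ER, and HYOU1, the nucleotide exchange factor of HSPA5, gave no signal clear of background. HSP90B1 read between 3.12 and 3.43, with a difference of 0.05 (95% interval -0.25 to 0.35). The 5 HYOU1 probe sets had means between 2.15 and 2.70 over the 6 arrays and differences between -0.03 and 0.00. At that signal no difference in either transcript was detectable.

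**Figure D2:**
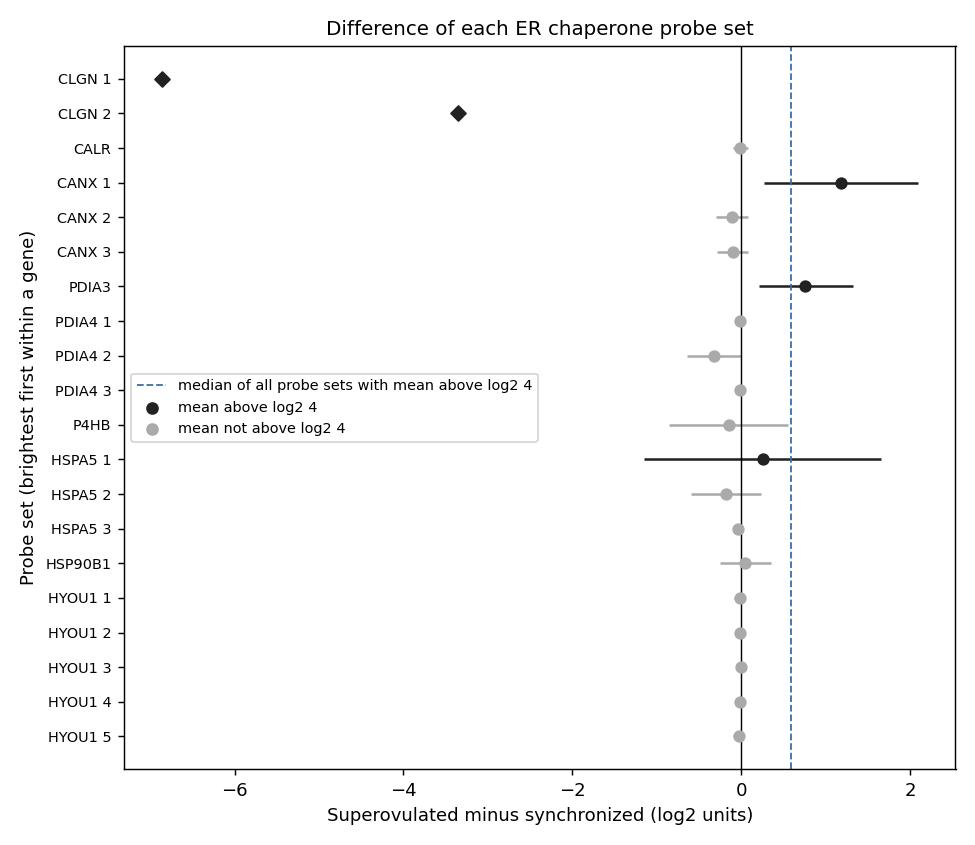
Difference between the groups (superovulated minus synchronized, log2 units) for the 20 ER chaperone probe sets, numbered from the brightest within a gene. Circles carry 95% intervals from limma, diamonds are the 2 CLGN probe sets without an interval, black marks a mean above log2 4, and the dashed line is the median of 0.59 over all probe sets above log2 4. CLGN stands at -6.86 and -3.35, and the other 18 lie between -0.32 and 1.18.

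Of the 18 probe sets other than CLGN, 0 passed an adjusted p of 0.05 in limma, against 0.716% of all probe sets, and 2 had an unadjusted p under 0.05, against 6.65%. With a looser call, an adjusted p under 0.3 and at least a 2-fold difference, the count was 0 as well, against 1.9% of all. The groups did not overlap in 3 of the 18 (16.7%), CANX and PDIA3 higher and 1 PDIA4 probe set lower, against 13.3% of all probe sets (5.42% higher and 7.89% lower), so this share was near the background. Of the 3 whose mean exceeded log2 4, CANX and PDIA3 had no overlap, against 46.5% of all probe sets of that brightness. The median difference of the 18 was -0.02, as it was over all probe sets. Of the 18, 15 did not exceed log2 4 on any array. The 3 that did were those of CANX, PDIA3 and HSPA5.

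**Figure D3:**
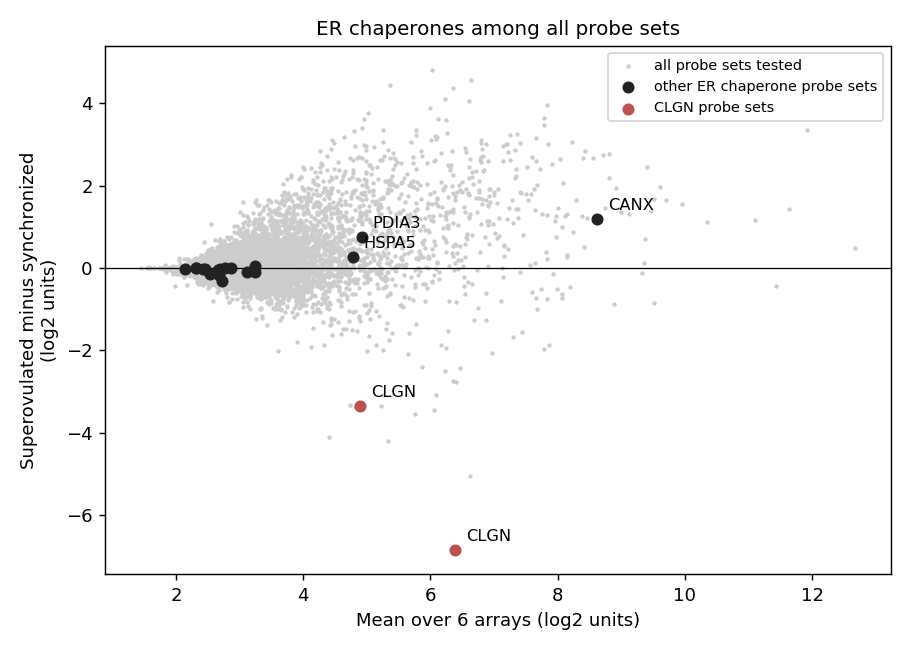
Difference between the groups against the mean over the 6 arrays (both in log2 units) for all 24016 probe sets (grey), the 18 other ER chaperone probe sets (black) and the 2 CLGN probe sets (red). CLGN lies at the lower edge of the cloud at -6.86 and -3.35, whereas 1009 of the 1406 probe sets whose mean exceeds log2 4 lie above 0.

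The other genes of ER folding were taken from 8 lists, in which 123 genes had a probe set, each represented by the one with the highest mean. Of the 123, 0 passed an adjusted p of 0.05 in limma, beside 0.716% of all probe sets, and 11 (8.94%) had an unadjusted p under 0.05, beside 6.65%. Their median difference was -0.02, as over all probe sets. The groups did not overlap in 19 genes (15.4%), 12 higher and 7 lower, against 13.3% of all (5.42% higher and 7.89% lower). Of the 12 higher genes, 6 were among the 22 genes of entry into the ER. The looser call, which took 1.9% of all probe sets, took 1 higher gene, OSTC, and 1 lower gene, CNPY2. The higher genes without overlap were a larger share than the 5.42% of all probe sets, and the other shares were near the background. Each gene stands for its brightest probe set, and of all probe sets above log2 4, 46.5% had no overlap.

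Most of the folding machinery proper was near background. Among 13 cochaperones, 10 did not exceed log2 4 on any array. Among 23 further disulphide and prolyl isomerases it was 20. ERP29, a lumenal relative of the disulphide isomerases without their active site, read 5.67, 5.70 and 5.59 on the superovulated and 4.68, 5.23 and 4.74 on the synchronized arrays. The superovulated arrays were all higher, and the difference of 0.77 did not pass limma's test (adjusted p = 0.214). It was 0.10 after quantile normalization and 0.15 after centring on probe sets above log2 4, and it passed only without synchronized array 2, in 1 of 12 alternatives (0.94, limma adjusted p = 0.0273). TXNDC5, a thioredoxin-domain isomerase, overlapped between the groups, with a difference of -0.12 on its brighter probe set. That value was 0.11 without superovulated array 1 and 0.09 without superovulated array 2.

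CNPY2, an ER resident of the saposin-like canopy family, was the pathway gene with the lowest difference. CNPY2 read 3.33, 3.49 and 3.47 in the superovulated group and 4.97, 4.38 and 5.33 in the synchronized group. As for CLGN, the superovulated arrays were near background and the groups did not overlap. The difference was -1.46 (95% interval -2.12 to -0.81) and did not pass limma's test (adjusted p = 0.132). Of 12 alternatives it passed in 3: without synchronized array 2 (-1.72, limma adjusted p = 0.0484), in a test of probe sets above log2 4 alone (adjusted p = 0.0149) and after centring on them (-2.08, adjusted p = 1.23e-06). Its mean exceeded log2 4 only through the synchronized arrays, so its higher group admitted it to the test of probe sets above log2 4 alone. In the other 9 alternatives its adjusted p in limma lay between 0.154 and 0.651. The share of all probe sets called was 0.57% without synchronized array 2, 31.4% among probe sets above log2 4 alone and 2.69% after centring.

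In the calnexin cycle list 8 of 9 genes were near background on every array. The cargo lectin LMAN2 read 4.27, 4.25 and 5.07, then 3.19, 4.95 and 3.55. The groups overlapped, and the difference of 0.63 did not pass limma's test (adjusted p = 0.636). MCFD2, which partners another cargo lectin, differed by -0.03 near background.

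Of 22 genes of N-glycan transfer, OSTC, a subunit of the oligosaccharyltransferase, differed most. OSTC read 4.53, 4.91 and 4.51 in the superovulated group and 2.52, 3.33 and 2.72 in the synchronized group. The synchronized arrays were near background and the superovulated ones above it, the reverse of CLGN. The difference was 1.79 (95% interval 1.15 to 2.43), with an adjusted p of 0.0762 in limma, and it passed in 2 of 11 alternatives, without synchronized array 2 (2.03, adjusted p = 0.0491) and after centring on probe sets above log2 4 (1.17, adjusted p = 0.0418). MAGT1, a further subunit picked with its values in view, read 4.29, 4.21 and 4, then 5.94, 4.47 and 4.43. Its groups lay only 0.14 apart, and the difference of -0.78 did not pass limma's test (adjusted p = 0.636).

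The genes of entry into the ER were the best measured. Of 22, 12 had a mean above log2 4, and 11 of those 12 differences were above 0, with a median of 0.61. The share above 0 among all probe sets of that brightness was 71.8%, and their median of 0.59 was close to that of the list. SEC61B, a subunit of the translocation channel, read 8.47, 8.78 and 8.78, then 7.64, 7.72 and 8.03. Its superovulated arrays were all higher. The difference of 0.88 did not pass limma's test (adjusted p = 0.112) and was -0.02 after quantile normalization.

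SRP19 of the signal recognition particle, which brings ribosomes to the ER, read 6.90, 6.94 and 7.23, then 4.77, 6.01 and 6.11, a difference of 1.39 (limma adjusted p = 0.467). Its superovulated arrays were again all higher. SRP72 of the same particle, chosen after its values were seen, differed by 1.76 (adjusted p = 0.450). SEC61B, SRP19 and SRP72 passed when probe sets above log2 4 were tested alone, with adjusted p of 0.0306, 0.0486 and 0.0424 in limma. With CNPY2 these made 4 of 18 pathway genes, beside 31.4% of all probe sets in that test. CNPY2 entered that test only through its synchronized arrays. SRP19 was 0.49 after quantile normalization (adjusted p = 0.751) and 0.77 after centring (adjusted p = 0.109), and SEC61B was 0.26 after centring.

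The regulators of the unfolded protein response gave no usable signal. All 14 stayed at or below log2 4 on every array, and 0 passed limma's test. DDIT3, the stress-induced transcription factor, read 3.43, 3.59 and 3.64, then 3.69, 3.58 and 3.53, with overlapping groups. The difference was -0.05, and 0.02 without superovulated array 1. MBTPS2, a protease that activates ATF6, differed by -0.22, with synchronized array 3 at 3.72 and the other arrays between 3.12 and 3.18. MBTPS1, picked with its values in view, went the other way. Its difference was 0.48 without overlap of the groups and did not pass limma's test (adjusted p = 0.261). In ER-associated degradation, 16 of 19 genes were near background. SELENOK, a selenoprotein of the ER membrane, read 3.88, 4.46 and 5.05, then 2.78, 6.05 and 3.97, and followed the array order seen for HSPA5. VCP, the ATPase that extracts proteins from the ER, overlapped between the groups at a difference of 0.12.

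**Figure D4:**
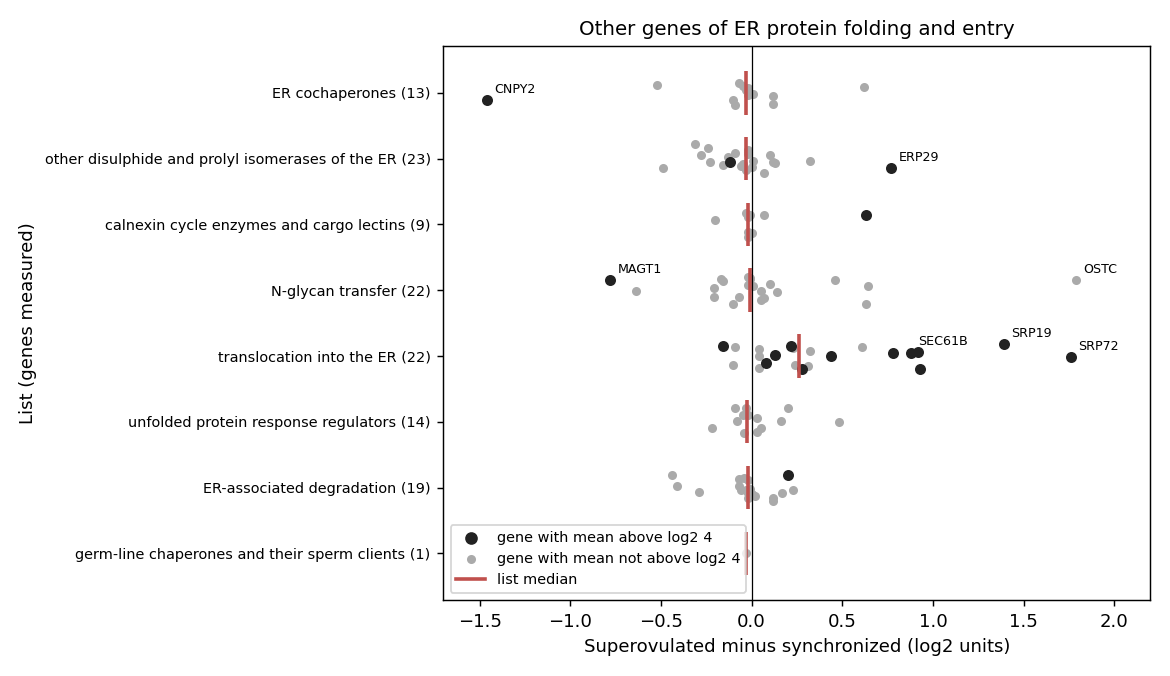
Difference between the groups (superovulated minus synchronized, log2 units) for the 123 genes of 8 ER lists, with the number of measured genes in brackets. Black points are genes with a mean above log2 4, grey points the others, and red lines list medians; vertical scatter within a list has no meaning. List medians lie between -0.03 and 0.26, and CNPY2 at -1.46 and OSTC at 1.79 are the outermost genes.

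Over the 18 pathway genes with a mean above log2 4, synchronized array 2 was the highest and array 1 the lowest synchronized array in 10 (55.6%), beside 53.8% of all probe sets of that brightness. This count was chosen after the values were seen. CLGN did not follow that order.

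Of the germ-line chaperones and sperm proteins listed with calmegin, which included CALR3 and PDILT, only the sperm surface gene ADAM2 had a probe set. It read 2.47 to 2.50 on the superovulated and 2.48 to 2.57 on the synchronized arrays, near background in both groups.

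The genes whose pattern over the 6 arrays was most like that of the brighter CLGN probe set were sought among 964 probe sets with a symbol and a mean above log2 4. Such a mean can come from 1 group alone, as for PPP3CC and CNPY2, which stayed below log2 4 on the superovulated arrays. The measure was Pearson's r over 6 arrays, which here mostly reflects the gap between the groups. The other CLGN probe set had r = 0.988. The 6 genes with the highest r were PNRC2 (0.977), LOC100174924 (0.970), PPP3CC (0.969), CNPY2 (0.956), ZC3H18 (0.955) and NHLRC2 (0.951). All 6 were lower on every superovulated than on any synchronized array, as were 3.98% of the probe sets above log2 4.

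Of these 6 genes, 5 had their lowest synchronized value on array 2, ZC3H18 being the exception; the genes were picked for their likeness to CLGN over these same arrays, which favours both this order and the gap between the groups. PNRC2, a coactivator that also acts in mRNA decay, read 4.97, 5.29 and 4.77, then 7.97, 7.17 and 8.24. PPP3CC, a catalytic subunit of calcineurin, read 3.85, 3.75 and 3.80, then 5.80, 4.84 and 5.58. Both were lowest on array 2 within the synchronized group. The further probe sets of PNRC2, PPP3CC and NHLRC2 were near background on every array and differed by -0.24 to 0.00, and that of LOC100174924 by 2.06 in the opposite direction. CNPY2 and ZC3H18 had 1 probe set each.

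**Figure D5:**
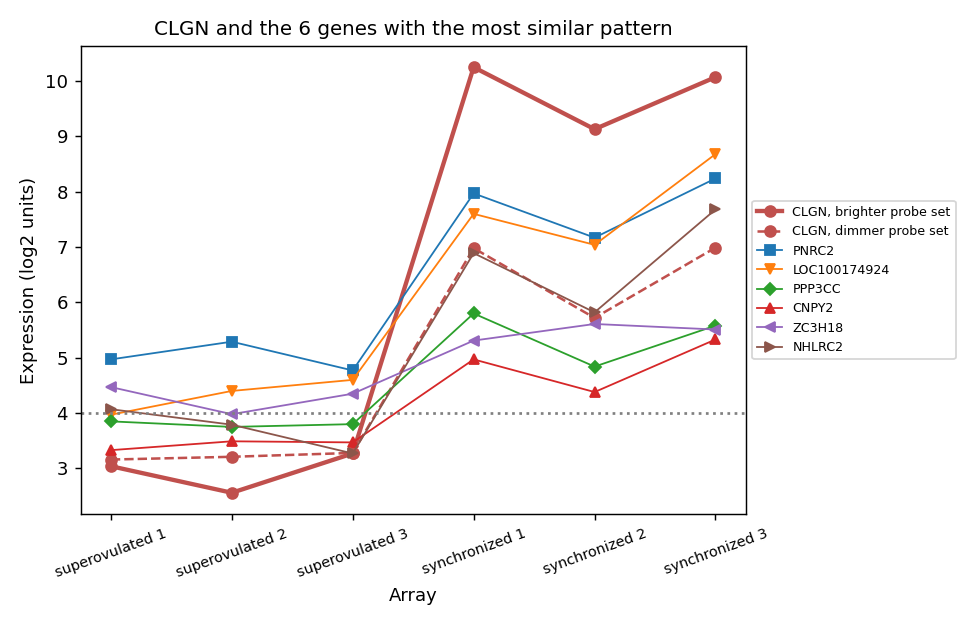
Expression (log2 units) on each of the 6 arrays for CLGN (red; solid, brighter probe set; dashed, dimmer) and the 6 genes with the highest Pearson's r to it. Lines join arrays only to show each profile, and the dotted line is log2 4. All 8 profiles are higher on the synchronized arrays, and 7 of them dip on synchronized array 2.

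Marker lists of the blastocyst and of other cell types were read beside CLGN. The log2 of the summed signal of 12 blastocyst genes was 9.05 to 9.38 on the superovulated and 7.01 to 7.48 on the synchronized arrays, so the groups did not overlap. Within it the trophectoderm keratin gene KRT18 read 7.74 to 8.11 and 3.55 to 4.90, whereas SOX2 and KRT8 were at background in both groups. The 9 oviduct and uterus genes gave 7.81 to 8.38 and 6.32 to 6.58, from EPCAM, which the embryo also expresses, and C3, with the defining gene OVGP1 between 2.19 and 2.26. These sums rest on a few bright genes. The median difference was -0.03 for the oviduct and uterus list and 0.59 for the blastocyst list. In the blastocyst list 6 of 12 genes were higher without overlap, against 5.42% of all probe sets, and 0 were lower. That background is not a like one, since each gene was read on its brightest probe set. Of the 12 genes, 4 had a mean above log2 4, and 46.5% of all probe sets of that brightness had no overlap, higher or lower. The 6 were KRT18, GATA6, EZR, DAB2, PTGS2 and POU5F1. Of the others, TEAD4 differed by 0.38, SLC2A1 by 0.06, ATP1B1 by -0.32 and CDH1, SOX2 and KRT8 by -0.01. Probe sets above log2 4 as a whole had a median difference of 0.59. The summed signal overlapped between the groups for the 8 oocyte genes (6.73 to 8.21 and 5.96 to 9.39), the 12 cumulus and granulosa genes (6.84 to 8.44 and 7.13 to 9.18) and the 9 blood genes (5.83 to 5.87 and 5.86 to 6.28). The number of these genes that did not exceed log2 4 on any array was 5 of 12 for blastocyst, 7 of 9 for oviduct and uterus, 5 of 8 for oocyte, 7 of 12 for cumulus and granulosa and 8 of 9 for blood. The part of any of these cells in the CLGN values was not tested.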

How the data were processed

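For each array the authors deposited a log2 expression value per probe set, made with GCRMA per the submitters' processing notes; neither its version nor joint normalization of the 6 arrays is stated there. Per the labels' protocols the RNA was amplified before hybridization. Values were used as deposited. The 112 control probe sets were set aside, which left 24016. Symbols came from GEO's platform annotation (13292 probe sets with 1 symbol, 86 with several, 10638 with none), and all 20 ER chaperone probe sets matched the ARS-UCD2.0 gene table with the same symbol. The comparison used limma (version 3.58.1, R 4.3.3, group as the only term, two-sided), with Benjamini-Hochberg adjustment over 24016 probe sets and a call at an adjusted p under 0.05. The procedure was tested on simulated data in which probe sets varied independently, so deviations shared by the probe sets of an array were not covered. The number of arrays, 3 per group, limits the precision. Detection calls were not used here.

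The genes and lists were chosen with earlier results of these data known. Genes named from the lists were those with a call or a looser call (adjusted p under 0.3 and at least 2-fold) and, where a list had none, the 2 of highest mean; exceptions are marked in the text. Genes like CLGN were the 6 with the highest Pearson's r. Alternatives were a second quantile normalization, centring on probe sets above log2 4, testing those alone, an intensity trend with a robust spread, a replicate block, all probe sets of a gene, and leaving out arrays. Same-numbered arrays deviated together for number 1 but not for numbers 2 and 3 (r = 0.60, -0.54 and -0.44, over probe sets above log2 4). The highest r, 0.74, was between superovulated array 3 and synchronized array 2. The numbers were therefore not taken as pairs.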

Additional observations from a re-analysis of the deposited data

How the results depend on the processing

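The count of 0 calls among the 18 ER chaperone probe sets other than CLGN held under all 12 alternatives, although only 3 of the 18 were tested among probe sets above log2 4 alone. The CANX difference ranged from 0.26 to 1.5 (adjusted p 0.0605 to 0.809) and that of PDIA3 from 0.14 to 0.95 (0.0824 to 0.885). CLGN lay between -7.48 and -6.64 on the brighter and -3.97 and -3.13 on the dimmer probe set. The brighter one moved most after centring on probe sets above log2 4 (-7.48) and, chosen after seeing the data, without superovulated array 3 and synchronized array 2 (-7.36). Leaving out 1 array at a time gave -7.20 to -6.64. That centring changed every difference by the same shift of -0.62, so each centred difference is the reported one plus this shift.

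Over the whole array 172 probe sets passed as reported, 28 after quantile normalization, 647 after centring, 441 of 1406 among those above log2 4 alone, 94 with an intensity trend and robust spread, 1 without superovulated array 3 and synchronized array 2, and 26 to 137 leaving out 1 array. The replicate block, whose numbers were not taken as pairs, left 0 calls in limma, with 1382 probe sets at an unadjusted p under 0.05. Of the 123 pathway genes 0 passed as reported, 4 after centring (CNPY2, MAGT1, ALG13 and OSTC), 4 among probe sets above log2 4 alone, and 0 to 3 leaving out 1 array, the 3 being CNPY2, ERP29 and OSTC without synchronized array 2.

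Some differences turned sign. HSPA5 was -0.07 after quantile normalization, -0.36 after centring and -0.19 to 0.75 leaving out 1 array, with the lowest without synchronized array 1. SEC61B, 0.88 as reported, was -0.02 after quantile normalization. SELENOK was -0.42 after centring and -0.55 to 1.09 leaving out 1 array, VCP -0.50 and -0.19 to 0.58. Leaving out 1 array, TXNDC5 ran from -0.55 to 0.11 and DDIT3 from -0.09 to 0.02. The sign changes after centring come from its shift of -0.62, the same for every probe set. The cause of the other sign changes was not tested. Signal over background is a limit, since 15 of the 18 probe sets never exceeded log2 4.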
